A study of Homo sapiens with 4 samples.

Results

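The 40 genes described here encode the mitotic cyclins, the kinase CDK1 and its regulators, the spindle checkpoint, the kinetochore, the machinery of anaphase, and proteins of the spindle and of cytokinesis. They were taken by gene name from tables of transcript values, and the values of all transcripts of a gene were summed. All 40 names were found among 20137 genes. CKS1B stood under 2 gene IDs, of which the one listed at 0 in all 4 libraries was set aside. RNA was sequenced from MDA-MB-231, a human triple-negative breast cancer line. There were 2 libraries of AURKA knockdown cells, titled shA, and 2 of control cells, titled shC and described as mock-transfected, and the labels call them biological replicates. Both groups were the same line grown in L-15 medium with serum. The sequence of the knockdown reagent, the time after its delivery, and whether it was stable or transient are not stated by the labels.

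AURKA encodes Aurora kinase A, which acts at centrosomes and on spindle microtubules. Entry into mitosis is driven by CDK1 bound to cyclin B, and many genes of this set are transcribed late in the cell cycle by the MuvB complex with B-MYB and FOXM1. The spindle checkpoint holds back the anaphase-promoting complex (APC/C) until kinetochores are attached to microtubules. CDC20 then activates the APC/C, and securin and cyclin B are degraded. In proliferating cultures many of these transcripts, though not all, are more abundant in G2 and mitosis than in G1.

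Values are FPKM, fragments scaled for transcript length and for the size of the library. Differences are knockdown minus control on log2(FPKM + 1), tested in limma over the 12136 genes that reached 1 FPKM in 2 or more libraries, two-sided and with Benjamini-Hochberg adjustment at a threshold of 0.05. The main fit had no replicate block. A further fit had the replicate number as a block, and its value is given beside the main one because the row order and loci of the files go with the replicate number. Summed values were 747993 and 718978 FPKM in the knockdown libraries and 720602 and 761641 FPKM in the control libraries. Estimated depths were between 17300000 and 27500000 fragments and are rough, since the tables hold no counts. Nothing states that the libraries came from separate cultures or days, so p-values measure the spread between these libraries. Mitochondrially encoded transcripts took 19.0% and 17.0% of the summed values in the knockdown libraries, against 16.03% and 17.6% in the control libraries. Of the markers of MDA-MB-231 cells, VIM, CD44, AXL, CAV1 and LAMB3 were each above 1 FPKM in every library, and CDH1, ESR1 and PGR were below it. ERBB2 and KRT18, listed with the low genes, were at 16.5 to 20.2 FPKM and 265 to 346 FPKM, and EPCAM at 2.49 to 3.30 FPKM. Blood cell markers summed to 0.32 and 0.49 FPKM in the knockdown libraries and to 0.65 and 0.18 FPKM in the control libraries, with CD3E and HBB at 0 in all 4. Endothelial markers summed to 0.20 and 0.19 FPKM in the knockdown and 0.46 and 0.51 FPKM in the control, and fibroblast markers to 2.38 and 2.11 FPKM in the knockdown and 3.66 and 2.17 FPKM in the control, with COL1A1 the 1 of 5 above 1 FPKM in every library. PECAM1 was not matched. The part of mitochondrial share or other cell types in the results below was not tested, beside the rescaled values given further on. AURKA itself had 22.3 and 23.7 FPKM in the knockdown libraries, against 124 and 99.1 FPKM in the control libraries. Its log2 difference was -2.22, with an SE (standard error) of 0.15 and a 95% interval from -2.60 to -1.85, and limma gave an adjusted p of 0.0819 without and 0.000696 with the replicate block.

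Beside this 4.86-fold lower AURKA, no mitotic gene of the set differed by more than 0.49 on the log2 scale. Differences this small were common, since 94.1% of all genes tested lay within 0.5 of 0. The 40 genes summed to 3801 and 4068 FPKM in the knockdown libraries, against 4469 and 4232 FPKM in the control libraries. Both knockdown sums lay below both control sums. Of the sum outside the mitochondrial genes, the set took 0.627% and 0.682% in the knockdown libraries and 0.739% and 0.674% in the control libraries, and these shares overlap. In a bulk library, fewer cells in G2 and mitosis and less RNA in each such cell cannot be told apart.

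All 40 passed the filter on low values, with levels from 11.9 FPKM (HMMR) to 438 FPKM (UBE2S) and a median of 69.7 FPKM, against 15.2 FPKM over all genes tested. The median log2 difference was -0.08, against 0.01 over all genes tested. It was -0.17 in replicate 1 and 0.002 in replicate 2, where 31 and 19 of the 40 genes lay below 0. Over all genes tested the replicate medians were -0.007 and 0.027, with 6189 and 5505 of 12136 genes below 0. In both replicates 18 genes were lower, 8 were higher in both, and 14 went opposite ways. Over all genes tested 31.7% were lower in both replicates and 35.3% higher in both. Limma without the block called 0 of 40, against 0.00% of all genes tested, and 2 of 40 had an unadjusted p under 0.05, against 6.37%. With the replicate block it called 2 of 40, against 3.44%, while the unadjusted p was under 0.05 for 13 members that were lower and 1 that was higher (CDC25B), against 11.0% and 11.2% of all genes tested. Both were lower in the knockdown, CKS1B and SPC25, where 1.90% of all genes were called lower. No member was called higher, where 1.53% of all genes were. Both knockdown libraries lay below both controls for 16 of 40 members (40.0%), against 16.6% of all genes tested, and above both for 4 of 40 (10.0%), against 19.4%.

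The precision allows a bound on most of these differences. For each of the 40 genes the 95% interval of the log2 difference in limma without the block lay inside -1 to 1, that is, inside a 2-fold change either way. The same held for 10665 of the 12136 genes tested. The median SE was 0.130 for the members and 0.175 over all genes tested, whose levels were lower. The lowest limit was -0.89, for CKS2, and the highest 0.89, for CENPE. These intervals hold gene by gene and are not adjusted for their number. With each library left out in turn, the median of the set lay between -0.03, without knockdown replicate 1, and -0.17, without knockdown replicate 2. In these fits 21 and 31 members lay below 0. When values were scaled to a fixed total after removal of the mitochondrial genes, the median was -0.04 and 26 members lay below 0, while the median of all genes tested was 0.05.

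**Figure D1:**
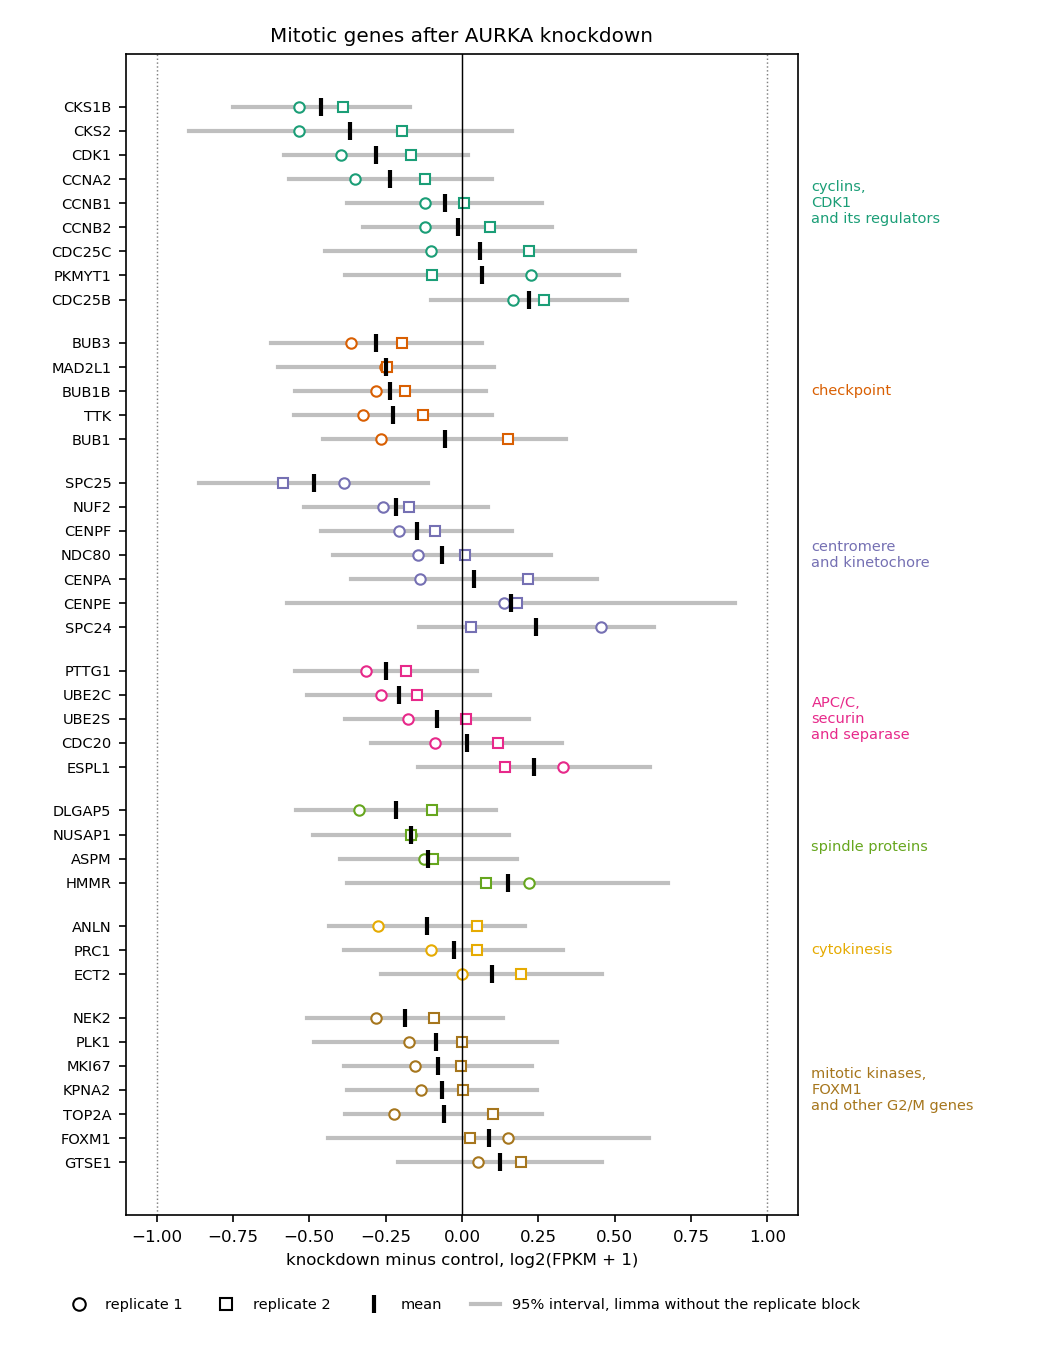
Log2 differences (knockdown minus control, log2(FPKM + 1)) of the 40 genes, ordered by role. Circles and squares are replicates 1 and 2, black marks their mean and grey bars the 95% interval of limma without the replicate block. All intervals lie between -1 and 1 (dotted lines), and those of CKS1B and SPC25 lie below 0.

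Many of the genes, though not all, have short words in common in the sequence around their starts. The cell cycle homology region (CHR) is the word TTTGAA, bound by the MuvB complex, and CCAAT is the word bound by NF-Y. RefSeq promoters (GRCh38.p14, 250 bases before to 50 after a start) were found for 35 of the 40 genes, 44 promoters in all, and BUB3, FOXM1, PKMYT1, TTK and UBE2C were not matched. On either strand, TTTGAA stood in 29 of the 44 promoters (65.9%), against 15.2% of all 35116 promoters. CCAAT stood in 34 of the 44 (77.3%), against 34.6%. At least 1 promoter with both words belonged to 22 of the 35 genes (62.9%), against 7.26% of all genes. The 6 promoters below show how both words are placed in the 3 genes with the lowest log2 differences, CKS1B, CKS2 and SPC25, and in 3 genes within 0.1 of 0 that hold both words, CCNB2, PLK1 and CDC20. They run from 110 bases before the start to 10 after it, with both words, on either strand, in capitals.
CKS1B: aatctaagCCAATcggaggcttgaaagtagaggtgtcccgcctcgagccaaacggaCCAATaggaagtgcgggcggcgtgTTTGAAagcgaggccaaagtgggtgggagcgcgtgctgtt
CKS2: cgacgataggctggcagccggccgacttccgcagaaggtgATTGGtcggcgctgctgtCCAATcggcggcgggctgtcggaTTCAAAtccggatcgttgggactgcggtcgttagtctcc
SPC25: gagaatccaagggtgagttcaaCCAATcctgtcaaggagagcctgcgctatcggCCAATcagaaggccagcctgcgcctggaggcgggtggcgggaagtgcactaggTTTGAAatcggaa
CCNB2: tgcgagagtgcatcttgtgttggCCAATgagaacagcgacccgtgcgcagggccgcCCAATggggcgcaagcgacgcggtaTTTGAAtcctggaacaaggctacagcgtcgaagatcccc
PLK1: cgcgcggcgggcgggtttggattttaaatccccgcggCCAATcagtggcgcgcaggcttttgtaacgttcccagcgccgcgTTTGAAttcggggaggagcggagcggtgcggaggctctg
CDC20: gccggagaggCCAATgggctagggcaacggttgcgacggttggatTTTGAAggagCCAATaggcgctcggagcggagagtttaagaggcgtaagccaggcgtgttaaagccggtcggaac

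These windows lie at chr1:154974571-154974690 (plus strand) for CKS1B, chr9:89311085-89311204 (plus) for CKS2 and chr2:168890421-168890540 (minus) for SPC25. Those of CCNB2, PLK1 and CDC20 lie at chr15:59105036-59105155, chr16:23678779-23678898 and chr1:43358871-43358990, all on the plus strand. TTTGAA begins 30 bases before the start of CKS1B, 29 before those of CKS2, CCNB2 and PLK1, 65 before that of CDC20 and 3 before that of SPC25. In CKS2 it is on the opposite strand. Each of the 6 windows holds TTTGAA and at least 1 CCAAT, and all 6 were chosen for display, so they do not compare the words between low and level genes. Other members within 0.1 of 0 lacked a word in this window: CCNB1 and BUB1 held no TTTGAA, and NDC80 no CCAAT. Over the matched members, the 26 genes with TTTGAA had a median log2 difference of -0.08 and the 9 without it had -0.06, with ranges from -0.49 to 0.24 and from -0.25 to 0.24.

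Both words had a preferred place. TTTGAA began 1 to 50 bases before the start in 16 of the 44 promoters (36.4%), against 2.56% of all promoters. CCAAT was most frequent 50 to 75 bases before it, in 21 of 44 (47.7%), against 7.62%. Other words searched on either strand were TTCGAA, a CHR variant, in 6.82% against 1.45%, and TTGAA, its core, in 70.5% against 33.7%. CGCGAA, an E2F-like word, stood in 15.9% against 6.09%, GGCGGG, a GC box, in 81.8% against 45.0%, and the forkhead-like word TGTTTA in 9.09% against 12.3%. The other genes of the pathway, described further on, held TTTGAA in 31.1% and CCAAT in 42.7% of their 103 promoters. Their shares were 71.8% for GGCGGG, 11.7% for CGCGAA and 5.83% for TTCGAA, nearer to those of the members. For TTGAA and TGTTTA they were 47.6% and 3.88%, and for GGCGG, 4 bases and TTTGAA 0.971%. A match describes the letters in the window and is not a measured binding site.

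**Figure D2:**
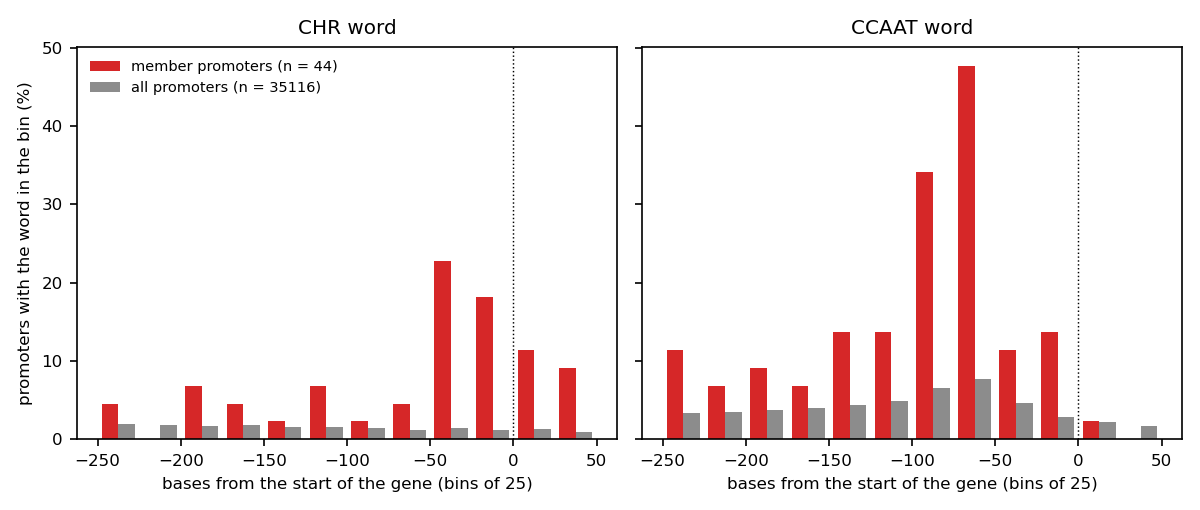
Share of promoters (%) with TTTGAA (CHR word, left) or CCAAT (right) beginning in each bin of 25 bases, by distance from the start of the gene. Red bars are the 44 promoters of the members and grey bars all 35116 promoters. CCAAT peaks at 47.7% of member promoters 50 to 75 bases before the start, upstream of TTTGAA.

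Among the cyclins, CDK1 and its regulators, 6 of 9 genes had a mean below control and the small CDK-binding proteins were lowest. CKS1B, which binds CDKs and serves the SCF-SKP2 ubiquitin ligase, had 161 and 178 FPKM in the knockdown libraries, against 234 and 233 FPKM in the control libraries. The groups did not overlap, and the 2 controls differed by less than 1 FPKM. Its means were 169.5 ± 11.7 and 233.4 ± 0.42 FPKM (SD, n = 2 each), and on the log2 scale they differed by -0.46 (SE 0.12). CKS1B fell with the replicate block (limma adjusted p 0.0355) and was not called without it (0.537). The gene (ENSG00000173207) lies on chromosome 1 at 154947128 to 154951725 in the files' coordinates (GRCh37). Over the alternatives its adjusted p ran from 0.358 to 0.9999 without the block and from 0.00952 to 0.179 with it, where 4 of 5 fits called it.

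CKS2, the paralog of CKS1B, had 258 and 221 FPKM in the knockdown libraries and 373 and 254 FPKM in the control libraries. Control replicate 1 stood well above the other 3, and the groups overlapped. The log2 difference of -0.37 was -0.53 in replicate 1 and -0.20 in replicate 2 (limma adjusted p 0.848 without and 0.102 with the block), and without control replicate 1 it was -0.09. CDK1, the mitotic kinase, had 91.8 and 103 FPKM in the knockdown libraries, against 121 and 116 FPKM in the control libraries. Here the groups did not overlap, and the log2 difference was -0.28 (SE 0.12) (limma adjusted p 0.781 without and 0.130 with the block). CCNA2, cyclin A2, which works in S phase and G2, had 32.2 and 32.6 FPKM in the knockdown and 41.3 and 35.6 FPKM in the control, a log2 difference of -0.24.

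The B-type cyclins were close to level. CCNB1, the main partner of CDK1, had 138.5 and 160.1 FPKM in the knockdown libraries, against 151 and 159 FPKM in the control libraries. CCNB2 had 78.9 and 90.2 FPKM in the knockdown and 85.9 and 84.5 FPKM in the control. For both, knockdown was below control in replicate 1 and above it in replicate 2. The log2 differences were -0.06 (interval -0.38 to 0.26) and -0.01 (interval -0.32 to 0.29). CCNB2 turned to 0.02 when values were scaled without the mitochondrial genes.

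Of the enzymes that set the phosphorylation of CDK1, CDC25B was the highest of this group relative to control. This phosphatase, which activates CDK1 at the entry into mitosis, had 41.6 and 39.6 FPKM in the knockdown libraries, against 36.97 and 32.7 FPKM in the control libraries. Both knockdown values lay above both controls, and the log2 difference was 0.22 (SE 0.13) (limma adjusted p 0.852 without and 0.199 with the block). Its relative CDC25C had 21.4 and 18.9 FPKM in the knockdown and 23.0 and 16.1 FPKM in the control. PKMYT1, the membrane-bound kinase that restrains CDK1, had 18.8 and 20.0 FPKM in the knockdown and 15.95 and 21.5 FPKM in the control. The groups overlapped for CDC25C and PKMYT1, and their differences of 0.06 each changed sign between the replicates.

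**Figure D3:**
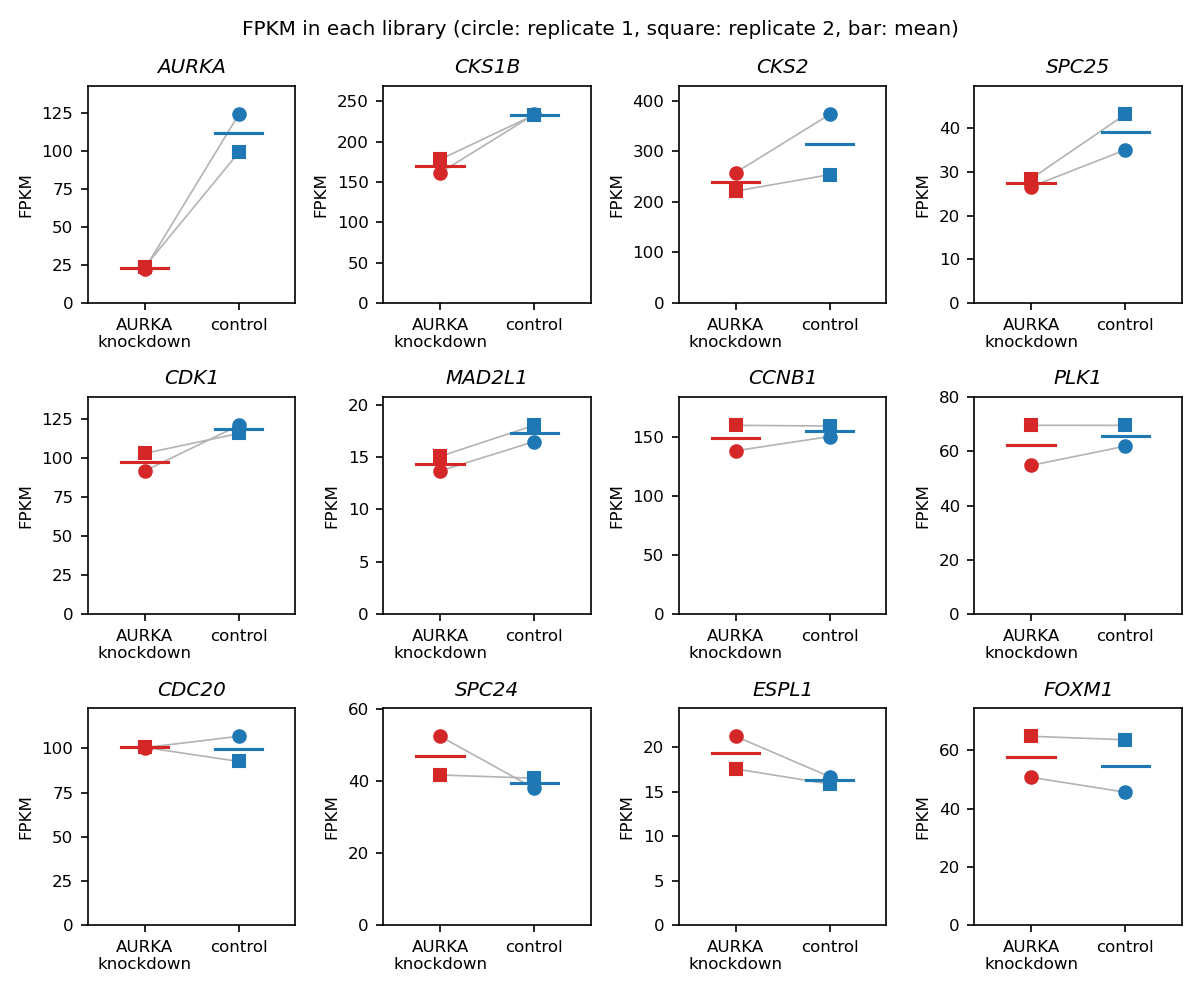
FPKM of AURKA and 11 members in each library, knockdown left of control. Circles are replicate 1 and squares replicate 2, with grey lines joining libraries of the same number and bars at the means. AURKA is at 22.3 and 23.7 FPKM in the knockdown and 124 and 99.1 FPKM in the control, while CCNB1, PLK1 and CDC20 overlap between the groups.

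All 5 checkpoint genes had a log2 difference below 0, against 47.7% of all genes tested, with a median of -0.23. In either limma fit 0 of 5 passed, against 0.00% of all genes tested without the block and 3.44% with it. The 16 other checkpoint and outer kinetochore genes of the wider pathway had a median of 0.07, with 10 above 0 and 0 with an unadjusted p under 0.05 with the block. With the replicate block 4 of the 5 had an unadjusted p under 0.05, where 11.0% of all genes tested were lower by that rule. MAD2L1, the protein that captures CDC20, had the same difference in both replicates, -0.25 and -0.24. It stood at 13.7 and 15.1 FPKM in the knockdown libraries, against 16.5 and 18.0 FPKM in the control libraries (limma adjusted p 0.844 without and 0.205 with the block). BUB3, a WD40 adaptor of the checkpoint, had 143 and 173 FPKM in the knockdown and 185 and 198 FPKM in the control, a log2 difference of -0.28 (SE 0.14).

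BUB1B, the pseudokinase BubR1, had 29.7 and 32.7 FPKM in the knockdown libraries and 36.3 and 37.4 FPKM in the control libraries. TTK, the kinase MPS1 that starts checkpoint signalling, had 36.5 and 36.6 FPKM in the knockdown and 46.0 and 40.1 FPKM in the control. For BUB3, BUB1B, TTK and MAD2L1, 4 of 5, both knockdown libraries lay below both controls, against 16.6% of all genes tested. BUB1, the kinase that phosphorylates histone H2A at centromeres, differed from them: 72.6 and 74.5 FPKM in the knockdown libraries lay between the controls at 87.4 and 67.0 FPKM.

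The kinetochore genes held both the lowest and the highest log2 difference of the set, in subunits of the same complex. The NDC80 complex, made of NDC80, NUF2, SPC24 and SPC25, couples kinetochores to microtubules. SPC25 had 26.6 and 28.5 FPKM in the knockdown libraries, against 35.1 and 43.2 FPKM in the control libraries. The groups did not overlap, with means of 27.5 ± 1.3 and 39.1 ± 5.8 FPKM (SD, n = 2 each) and a log2 difference of -0.49 (SE 0.15). SPC25 fell with the replicate block (limma adjusted p 0.0449) and was not called without it (0.628). Over the alternatives its adjusted p ran from 0.368 to 0.9999 without the block and from 0.00953 to 0.184 with it, where 3 of 5 fits called it. The gene (ENSG00000152253) lies on chromosome 2 at 169727403 to 169769787 (GRCh37), a locus the files share with G6PC2.

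SPC24 had 52.4 and 41.7 FPKM in the knockdown libraries, against 37.9 and 40.8 FPKM in the control libraries. Knockdown replicate 1 alone stood apart, with a difference of 0.46 in replicate 1 and 0.03 in replicate 2 (limma adjusted p 0.854 without and 0.270 with the block). NUF2 had 47.8 and 52.7 FPKM in the knockdown and 57.5 and 59.5 FPKM in the control, without overlap. NDC80 had 30.6 and 36.6 FPKM in the knockdown and 33.9 and 36.3 FPKM in the control, with overlap. The log2 differences of NUF2 and NDC80 were -0.22 and -0.07, and the difference between subunits was not tested.

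At the centromere itself, CENPA, the histone H3 variant that marks it, had 36.0 and 35.7 FPKM in the knockdown libraries, between the controls at 39.8 and 30.6 FPKM. CENPF, a large kinetochore protein of G2 and mitosis, had 67.3 and 76.7 FPKM in the knockdown and 77.9 and 81.7 FPKM in the control, a log2 difference of -0.15. CENPE, a kinesin of the outer kinetochore, had 37.5 and 59.4 FPKM in the knockdown and 34.0 and 52.3 FPKM in the control. For CENPE the replicates were further apart than the groups: it was higher in replicate 2 by 0.63 on the log2 scale (limma adjusted p 0.0148 for the replicate number), and its knockdown difference was 0.16 with a standard error of 0.29.

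The genes of anaphase went both ways. PTTG1, securin, which holds separase inactive, had 326 and 321 FPKM in the knockdown libraries, against 406 and 365 FPKM in the control libraries. ESPL1, separase, had 21.2 and 17.6 FPKM in the knockdown and 16.7 and 15.9 FPKM in the control. Neither gene's groups overlapped, with log2 differences of -0.25 for PTTG1 (limma adjusted p 0.807 without and 0.153 with the block) and 0.24 for ESPL1 (limma adjusted p 0.857 without and 0.239 with the block). PTTG2, a close copy of PTTG1, was at 0.37 FPKM or less in every library.

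Of the proteins that work with the APC/C, UBE2C, the enzyme that starts ubiquitin chains, had 207 and 199.7 FPKM in the knockdown libraries and 248 and 221 FPKM in the control libraries, a log2 difference of -0.21. UBE2S, which extends those chains, had 387 and 398 FPKM in the knockdown and 438 and 394 FPKM in the control. The UBE2S locus is shared with RPL28 in the files. CDC20, the co-activator, had 100.5 and 100.6 FPKM in the knockdown and 106.9 and 92.6 FPKM in the control. Both knockdown values of CDC20 lay between the controls, and its difference was 0.01 on the log2 scale with an interval from -0.30 to 0.33.

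Among the spindle proteins 3 of 4 had knockdown values below both controls, against 16.6% of all genes tested. DLGAP5 (HURP), which stabilises kinetochore fibres, had 125 and 149 FPKM in the knockdown and 158 and 159 FPKM in the control. NUSAP1, which bundles microtubules, had 92.3 and 103 FPKM in the knockdown libraries and 104 and 116 FPKM in the control libraries, a difference of -0.17 in each replicate. ASPM, a protein of spindle poles, had 38.4 and 37.9 FPKM in the knockdown and 42.0 and 40.6 FPKM in the control. HMMR, a microtubule protein also known as RHAMM, was the exception at 14.0 and 17.5 FPKM in the knockdown and 11.9 and 16.5 FPKM in the control, with overlap. The log2 differences were -0.22, -0.17, -0.11 and 0.15. In either limma fit 0 of 4 passed, against 0.00% of all genes tested without the block and 3.44% with it.

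The groups overlapped for all 3 cytokinesis genes, as for 7777 of the 12136 genes tested. PRC1, which bundles the microtubules of the spindle midzone, had 143 and 174 FPKM in the knockdown libraries and 154 and 169 FPKM in the control libraries. ANLN, anillin, a scaffold of the contractile ring, had 175 and 199 FPKM in the knockdown and 212 and 192 FPKM in the control. ECT2, the exchange factor that activates RhoA at the cell equator, had 117 and 108.6 FPKM in the knockdown and 117 and 94.8 FPKM in the control. Their log2 differences were -0.03, -0.11 and 0.10, and that of PRC1 turned to 0.0087 when values were scaled without the mitochondrial genes.

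The mitotic kinases, FOXM1 and the remaining G2/M genes lay between -0.19 and 0.12. PLK1, the kinase that AURKA activates with its cofactor Bora, had 54.8 and 69.6 FPKM in the knockdown libraries, against 61.9 and 69.6 FPKM in the control libraries. In replicate 2 the PLK1 libraries differed by less than 0.1 FPKM. NEK2, a kinase of centrosome separation, had 31.1 and 31.5 FPKM in the knockdown and 38.01 and 33.7 FPKM in the control, without overlap and with a log2 difference of -0.19. FOXM1, the transcription factor of many of these genes, had 50.8 and 64.9 FPKM in the knockdown and 45.7 and 63.7 FPKM in the control. FOXM1 was higher in replicate 2 than in replicate 1 by 0.41 on the log2 scale (limma adjusted p 0.0278 for the replicate number), and its knockdown difference was 0.09 with an interval from -0.44 to 0.61.

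MKI67, the proliferation marker Ki-67, had 92.8 and 106 FPKM in the knockdown libraries and 103 and 106 FPKM in the control libraries. TOP2A, the topoisomerase that untangles sister chromatids, had 204 and 232 FPKM in the knockdown and 238 and 216 FPKM in the control. KPNA2, an importin alpha, had 159 and 182 FPKM in the knockdown and 175 and 182 FPKM in the control. GTSE1, a microtubule-associated protein of G2 and S phase, had 25.9 and 29.5 FPKM in the knockdown and 24.9 and 25.7 FPKM in the control. Of these 4, GTSE1 alone had groups that did not overlap. Its knockdown values lay above both controls, as for 19.4% of all genes tested. The log2 difference of GTSE1 was 0.12, against -0.08, -0.06 and -0.07 for MKI67, TOP2A and KPNA2.

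Between the replicate numbers, with the group as a term, limma called 3 of 40 members, against 13.8% of all genes tested. CENPE and FOXM1 were higher in replicate 2, where 4.71% of all genes were. CKS2 was lower in replicate 2 by 0.39 on the log2 scale (limma adjusted p 0.0491), where 9.06% of all genes were. The number of members called was 5 with upper-quartile scaling and 0 with no filter on low values. The share of all genes called in those settings was not computed, so these counts have no background beside them. HMMR (0.37), CDC25C (-0.33) and PLK1 (0.25) followed in size and were not called. What the replicate number marks beside the row order and loci of the files is not stated by the labels.

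**Figure D4:**
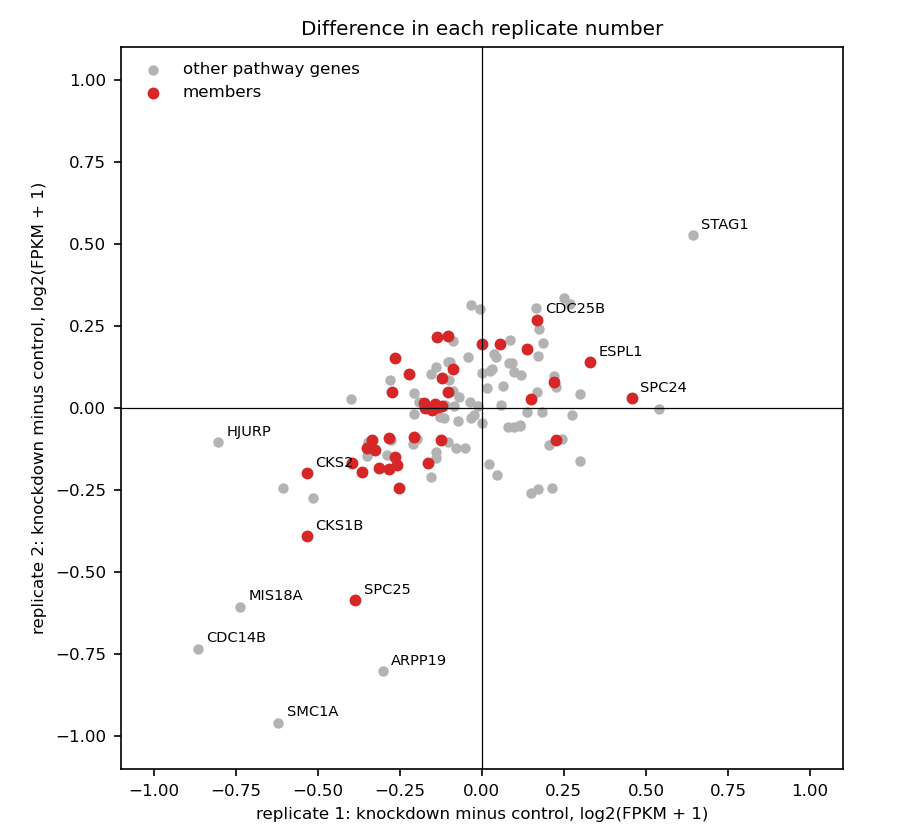
Knockdown minus control difference, log2(FPKM + 1), in replicate 1 (horizontal) and replicate 2 (vertical). Red points are the 40 members and grey points the other genes of the pathway. Members lower in both replicates, 18 of 40, lie at the lower left, with CKS1B and SPC25 furthest from the crossing of the axes. The pathway genes SMC1A, CDC14B, MIS18A, ARPP19 and HJURP, also at the lower left, lie further from that crossing.

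The wider pathway was taken as 86 further genes of the APC/C, the outer kinetochore and checkpoint, the centromere, cohesin and condensin, mitotic entry and exit, and the MuvB complex. Of these, 84 were tested, CCNB3 was below the filter and the name MLF1IP was not found. Limma called 0 of 84 without the block, where 4 had an unadjusted p under 0.05, against 6.37% of all genes tested. With the block it called 1 higher and 3 lower, against 1.53% and 1.90% of all genes tested. The median log2 difference was -0.01, with 44 of 84 genes below 0.

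The 3 that fell with the block were CDC14B, SMC1A and MIS18A. CDC14B, a phosphatase related to the yeast mitotic exit phosphatase, had 9.17 and 8.43 FPKM in the knockdown libraries, against 17.5 and 14.7 FPKM in the control libraries (log2 -0.80, limma adjusted p 0.440 without and 0.0176 with the block). MIS18A, a subunit of the complex that prepares centromeres for new CENPA, had 10.3 and 11.2 FPKM in the knockdown and 17.8 and 17.5 FPKM in the control (log2 -0.67, limma adjusted p 0.444 without and 0.0267 with the block). SMC1A, a core subunit of cohesin, had 13.6 and 22.7 FPKM in the knockdown and 21.5 and 45.0 FPKM in the control. The groups of SMC1A overlapped. Replicate 2 was higher than replicate 1 by 0.86 on the log2 scale (limma adjusted p 0.0148 for the replicate number), and its knockdown difference was -0.79 (limma adjusted p 0.822 without and 0.0195 with the block).

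STAG1, another subunit of cohesin, rose with the block, at 20.2 and 24.2 FPKM in the knockdown libraries and 12.6 and 16.5 FPKM in the control libraries (log2 0.58, limma adjusted p 0.633 without and 0.0320 with the block). The next highest were ANAPC16, an APC/C subunit, at 13.9 and 13.7 FPKM in the knockdown and 11.4 and 10.8 FPKM in the control, and CCNA1, the germline cyclin A1, at 9.29 and 6.80 FPKM in the knockdown and 7.65 and 5.18 FPKM in the control. Neither was called. By list, genes called with the block, against 3.44% of all genes tested, numbered 2 of 18 in cohesin and condensin, 1 of 18 in the centromere list, 1 of 11 in mitotic entry and exit, and 0 of 15, 0 of 16 and 0 of 6 in the APC/C, outer kinetochore and MuvB lists. The centromere list holds CENPJ, which is a protein of centrioles despite its name.

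At the level of transcripts, the most abundant transcript carried a median of 88.7% of a member's value, and over 90% in every library for 17 of the 40 genes. Splits between transcripts of a gene are estimates and were not tested. The main transcript of CKS1B (ENST00000308987) had 151 and 165 FPKM in the knockdown libraries and 222 and 216 FPKM in the control libraries. Its minor transcripts were lower in each replicate too. ENST00000368436 had 5.06 and 7.59 FPKM in the knockdown and 5.975 and 8.63 FPKM in the control. ENST00000368439 had 4.73 and 5.46 FPKM in the knockdown and 5.41 and 8.68 FPKM in the control. In SPC25 the minor transcript (ENST00000451987) had 0.37 and 0.88 FPKM in the knockdown libraries, against 3.31 and 5.78 FPKM in the control libraries. The main SPC25 transcript (ENST00000282074) had 26.3 and 27.6 FPKM in the knockdown and 31.8 and 37.4 FPKM in the control, so both were lower.

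The high SPC24 value of knockdown replicate 1 included 12.1 FPKM of a transcript (ENST00000586708) that was at 1.42 FPKM in knockdown replicate 2 and at 4.88 and 2.06 FPKM in the control libraries. In MKI67 the 2 main transcripts lay on opposite sides of control. The form with the larger share (ENST00000368654) had 65.2 and 56.8 FPKM in the knockdown libraries and 85.2 and 65.3 FPKM in the control libraries, while the other (ENST00000368653) had 27.6 and 49.3 FPKM in the knockdown and 18.0 and 41.2 FPKM in the control. The second form took 29.7% and 46.5% of MKI67 in the knockdown libraries and 17.5% and 38.7% in the control libraries, and it differed more between the replicate numbers than between the groups. In the files, 9 members share a locus with another gene, and reads of overlapping genes cannot be told apart without strand. The other 31 had a median log2 difference of -0.07, with 22 below 0.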

How the data were processed

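For every library the authors deposited a table of 81493 transcripts. The header names no unit, and the deposited values were read as FPKM from the values themselves. Tools listed in the submitters' processing notes were HTSeq 0.8.0 and bcl2fastq 2.19, with the build hg38. Which program made the FPKM values is not given in those sources. Loci in the files end beyond GRCh38 on chromosome 4, so their coordinates are GRCh37. Tables were joined on 81412 shared transcripts and summed to 20137 genes by gene ID.

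Depth was estimated from the value of 1 fragment in genes with 1 transcript, under 0.3 FPKM and over 2000 bases in GENCODE 29, where 72 to 99 of 440 to 480 genes fell in the main cluster, so precision from counting is only roughly known. Tests used limma 3.58.1 (R 4.3.3) with a mean-variance trend on log2(FPKM + 1), checked on simulated data. No counts were recovered, so no count test was run. Row order and loci were the same within a replicate number and differed between numbers (1707 transcripts had another locus), and differences between the numbers correlated between the groups across genes at r = 0.645. The replicate block was therefore fitted beside the main design. Values in every library were given for AURKA, the 8 highest and 8 lowest members, members past the threshold in either fit and 9 members by name (CCNB1, CDK1, CDC20, PLK1, BUB1B, MAD2L1, CENPA, FOXM1 and MKI67), and the remaining members are given too. Pathway genes named were those past the threshold in either fit and the 3 highest and 3 lowest. Alternatives were another pseudocount (0.1), filter (none, 5), scaling, the block, and each library left out. The members and lists were chosen with earlier results of these data known.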

Additional observations from a re-analysis of the deposited data

How the results depend on the processing

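With the replicate block, that is, libraries paired by number, limma called 2 members, 4 other pathway genes and 417 of all genes, against 0 of each without it. The block with median-of-ratios scaling gave 2, 6 and 852, with upper-quartile scaling 3 (CKS2 added), 7 and 1074, with a pseudocount of 0.1 1 (CKS1B), 4 and 287, and unfiltered 0 of each. Without the block, all genes called numbered 1 with a filter at 5 FPKM, 2 scaled to a fixed total, 1 so scaled without mitochondrial genes, and 6 to 15 with a library left out, and members called stayed at 0. Genes called between replicate numbers among the members were 3, 0 with no filter and 5 with upper-quartile scaling. A share of all genes (13.8%) was computed beside the 3 only, not beside the alternatives. AURKA passed with the block at -2.22, with median-of-ratios scaling -2.23, upper-quartile scaling -2.22 and a pseudocount of 0.1 -2.27, and with a library left out at -2.06 to -2.38.

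The median of the members kept its sign in every alternative, from -0.03 to -0.17. Each alternative kept a replicate 1 library, and in replicate 2 alone the median was 0.002. Scaling without mitochondrial genes turned CCNB2 to 0.021 and PRC1 to 0.0087. Leaving out 1 library changed the sign of 17 members, none above 0.16 in size, and of the other 23 in no alternative. Their log2 ranges were -0.16 to 0.047 for CCNB1, -0.11 to 0.080 for CCNB2, -0.19 to 0.30 for CDC25C, -0.14 to 0.27 for PKMYT1, -0.25 to 0.13 for BUB1, -0.14 to 0.22 for CENPA, -0.16 to 0.48 for CENPE, -0.19 to 0.059 for NDC80, -0.087 to 0.12 for CDC20, -0.072 to 0.37 for HMMR, -0.17 to 0.11 for PRC1, -0.052 to 0.25 for ECT2, -0.26 to 0.083 for PLK1, -0.15 to 0.32 for FOXM1, -0.17 to 0.017 for MKI67, -0.15 to 0.034 for TOP2A and -0.16 to 0.033 for KPNA2. The causes were not tested. With 2 libraries a group and no counts, depth limits the low genes most, and by how much is unknown.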
